A study of Zea mays subsp. mays x Zea mays subsp. mexicana with 20 samples.

Results

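Pollen of maize homozygous for *dcl2T*, a *Dcl2* allele from the wild relative teosinte *mexicana*, was compared with pollen carrying *Dcl2*, across every small RNA locus with at least 15 reads over the 4 libraries. This minimum kept 38416 of the 85421 loci in the table, or 45.0%. The 10 chromosomes carried 38091 of them and unplaced scaffolds the other 325. They were 19 to 29671 bp long, with a median of 1243 bp, and held a median of 33 reads over the 4 libraries. Of the 47005 loci below the minimum, 13760 had no read in any of the 4, and their median length was 518 bp. The rule reads total abundance and not genotype, and its edge is crowded, with 1515 loci at exactly 15 reads and 1722 at 14.

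The *dcl2T* allele came from a line that traces to a *mexicana* plant crossed to the maize inbred W22 and then backcrossed. The groups were *dcl2T* (labelled dcl2T-/-), *Dcl2* (the wild-type control) and *dcl2-mu1*, a W22 allele of *Dcl2* with the transposon *Mu* inserted in its 5′ UTR, with 2 biological replicates of pollen in each. The *dcl2-mu1* allele has a separate origin, as it was isolated from a Uniform-Mu line and repeatedly backcrossed to W22. The *dcl2-mu1* libraries shared the estimate of the spread between replicates and are given beside single loci for reference. The *dcl2T* allele was isolated in maternal recombinants and belongs to a longer *mexicana* interval on the short arm of chromosome 5. Differences due to the allele and to other *mexicana* sequence cannot be told apart. The labels of these libraries give no genotype at *Tpd1* or *Tpd2*, the other loci of the pollen drive system in the *mexicana*-derived line. No gene is named in the table, so neither the genotype at *Dcl2* nor the tissue could be checked against a marker.

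DICER-LIKE proteins cut double-stranded RNA into siRNAs of a set length. DCL2 makes siRNAs of 22 nucleotides, both from transcripts that fold back into hairpins and from double strands that RDR6 builds with SGS3. Other DICER-LIKE proteins make siRNAs of 21 nucleotides (DCL4) and of 24 nucleotides (DCL3), the latter mainly from transposons and other repeats. The table joins all read lengths at a locus, so the values below are of whole loci and not of one siRNA class. Each locus is named by the cluster number of the table, with its chromosome and position as the table gives them, on a genome build not given in the sources used here. No annotation of genes, repeats or hairpins was used, and no siRNA sequences were in the table.

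Total counts were 3966305 and 4392281 in *Dcl2* and 4357765 and 4920576 in *dcl2T*, of which the 38416 loci held 98.5 to 99.1%. Values are given as CPM, the usual scaled read count, on library sizes scaled by TMM, a method that sets the bulk of loci to no change. A single read was worth 0.322 and 0.256 CPM in *Dcl2* and 0.250 and 0.208 CPM in *dcl2T*. Zeros were more frequent in *Dcl2*, where 16.4% and 16.6% of loci had no read, than in *dcl2T*, with 7.25% and 6.13%. The *dcl2-mu1* libraries had total counts of 1950081 and 4083990, and no read at 62.3% and 28.9% of loci. A zero in them, above all in the first, is thus common and does not by itself show a loss. On log2 CPM across all loci, which are not independent replicates, the *Dcl2* libraries correlated at 0.634 and the *dcl2T* libraries at 0.731, against 0.639 to 0.654 between genotypes. Among the 1139 loci with a mean of at least 50 CPM these values were 0.932, 0.895 and 0.804 to 0.837, so that the libraries of both genotypes were closer to their own replicate than to the other genotype only among abundant loci.

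Over all loci, libraries of different genotype typically differed by less than the *Dcl2* replicates but by more than the *dcl2T* replicates. The median log2 change, *dcl2T* over *Dcl2* with 0.5 CPM added to both means, was 0.07, and its quartiles were −0.55 and 0.76. For single pairs of a *dcl2T* and a *Dcl2* library the median ran from 0.04 to 0.18. The typical absolute log2 difference of a locus was 0.927 to 0.963 between libraries of different genotype, 1.02 between the *Dcl2* replicates and 0.713 between the *dcl2T* replicates. Scaling by library size alone moved the median to 0.23, a shift of all loci together. Since TMM sets the bulk of loci to no change, a median near 0 cannot decide whether all loci shifted together.

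Against this spread, 12 loci were called lower and 28 higher in *dcl2T* by edgeR's quasi-likelihood test, with p-values adjusted by Benjamini-Hochberg over all 38416 loci and kept to 0.01, and a fold change of 2 or more on the log2 scale. These are 0.0312% and 0.0729% of the loci tested. The *Dcl2* and *dcl2T* values overlapped at none of the 40. Over all loci, 5775 (15.0%) had both *dcl2T* libraries below both *Dcl2* libraries and 8206 (21.4%) had both above. Before adjustment, p was under 0.05 for 721 lower (1.88%) and 967 higher loci (2.52%). The number called depended on the fit. Each called locus kept its direction in every alternative fit, but 3 of the 12 and 6 of the 28 were called with any 1 of the 4 libraries left out, and a test of the 6367 loci with at least 100 reads called 0 in either direction, while 239 lower and 222 higher loci had an unadjusted p under 0.05 in that test.

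**Figure D1:**
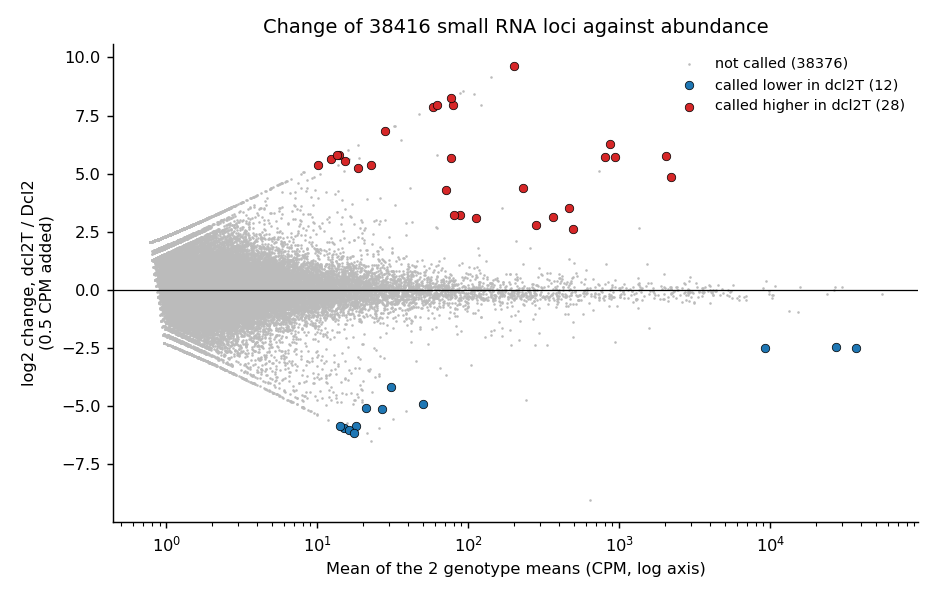
Each point is 1 of the 38416 loci, by the mean of the *Dcl2* and *dcl2T* means in CPM (x axis, log scale) and the log2 change of *dcl2T* over *Dcl2* with 0.5 CPM added (y axis), with called loci in blue (12, lower) and red (28, higher). The grey cloud narrows as abundance rises, and the 3 blue points at the right, near a log2 change of −2.5, are among the most abundant loci of all.

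The loss of reads in *dcl2T* was concentrated in 3 long and very abundant loci. Together the 12 loci called lower held 11.0% and 9.89% of the counts of the *Dcl2* libraries and 2.16% and 2.13% of those of *dcl2T*. Cluster_66207, at 29671 bp the longest locus tested (chromosome 8, 32579531 to 32609201), had 68821 and 56177 CPM in *Dcl2* and 11436 and 10853 CPM in *dcl2T*. Cluster_66205, 21105 bp long and on the same stretch of chromosome 8 (32541762 to 32562866), had 52862 and 39155 CPM in *Dcl2* against 8809 and 8066 CPM in *dcl2T*. Cluster_36249, 10669 bp on chromosome 4 (117693135 to 117703803), had 16924 and 14589 CPM against 2980 and 2546 CPM. All 3 kept a level in *dcl2T* far above that of most loci, and their log2 fold changes lay close together, at −2.49 (SE 0.23), −2.45 (SE 0.24) and −2.51 (SE 0.25), with edgeR adjusted p of 1.46e-05, 2.96e-05 and 2.96e-05. In *dcl2-mu1* the mean levels were 18910 ± 768, 11748 ± 807 and 4345 ± 172 CPM (SD, n = 2). Cluster_66207 and Cluster_36249 were called whichever library was left out, and Cluster_66205 was not called without the second *dcl2-mu1* library (adjusted p = 0.0122). In the fit of loci with at least 100 reads their adjusted p were 0.0262, 0.0301 and 0.0301.

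The fall on chromosome 8 did not extend over the loci around it. Cluster_66206, between Cluster_66205 and Cluster_66207, had 143 and 205 reads in *Dcl2* and 223 and 168 in *dcl2T*. Cluster_66208, 16932 bp long on the other side, had 132 and 125 CPM in *Dcl2* and 132 and 127 CPM in *dcl2T*. Cluster_66204, of 15335 bp, had 904 and 695 CPM in *Dcl2* against 786 and 1350 CPM in *dcl2T*. None of the 3 differed between genotypes beyond its replicates, and of the 12 loci within 200 kb other than the called pair, 1 had both *dcl2T* libraries below both *Dcl2* libraries and 0 had both above.

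The other 9 loci called lower were far less abundant, and little or nothing of them was left in *dcl2T*. Cluster_26036 (2831 bp, chromosome 3, 96251937 to 96254767) had 253 and 445 reads in *Dcl2*, 7 and 18 in *dcl2T* and 0 in both *dcl2-mu1* libraries, a log2 fold change of −5.13 (SE 0.66, adjusted p = 0.000887). Cluster_25814 (3824 bp, chromosome 3, 89565408 to 89569231) had 156 and 260 reads in *Dcl2* against 9 and 16, and 0 in *dcl2-mu1*. For these loci the *dcl2T* libraries retained some reads where the *dcl2-mu1* libraries had none. Zeros were common in *dcl2-mu1*, at 62.3% and 28.9% of all loci, so no order of the 2 genotypes is drawn from this. Cluster_66805 (1670 bp, chromosome 8, 53289613 to 53291282) fell from 113 and 267 reads to 4 and 5, and had 0 and 3 in *dcl2-mu1*. Cluster_80611 (3131 bp, chromosome 10, 49516208 to 49519338) fell from 123 and 167 reads to 1 and 6. Cluster_35979 (3855 bp, chromosome 4, 109365233 to 109369087) fell from 133 and 114 reads to 1 and 0. Both had no read in *dcl2-mu1*.

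Of the loci called lower, 4 had no read in either *dcl2T* library, and none in *dcl2-mu1*. Cluster_85113, 796 bp on an unplaced scaffold (96681 to 97476), had 102 and 143 reads in *Dcl2*. Cluster_83670, 1118 bp on chromosome 10 (126203630 to 126204747), had 77 and 155. The remaining pair were short. Cluster_62212, 114 bp on chromosome 7 (125169053 to 125169166), had 140 and 60 reads in *Dcl2*, and Cluster_74446, 172 bp on chromosome 9 (57986104 to 57986275), had 86 and 111. Against a floor of 3 reads over the 2 *dcl2T* libraries, or 0.341 CPM, these loci were at least 102-fold, 94.7-fold, 88.7-fold and 82.4-fold lower in *dcl2T*. None of the 9 less abundant loci was called without the first or without the second *Dcl2* library.

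The loci called higher in *dcl2T* held 0.0567% and 0.0694% of *Dcl2* reads and 2.65% and 0.873% of *dcl2T* reads. Their median length was 1470 bp, and the longest had 5233 bp, so none reached the length of the 3 abundant loci that fell. They were on 8 chromosomes, with 15 of the 28 on chromosome 1, which holds 14.9% of the loci tested. Of these 15, 8 lay in a pair of narrow neighbourhoods, each drawn from its first to its last called locus. Every locus tested between those ends was called higher.

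The neighbourhood near the start of chromosome 1 (2829843 to 2850706, 20.9 kb) held Cluster_135, Cluster_136, Cluster_137 and Cluster_138. Their summed level was 175 and 88.5 CPM in *Dcl2* and 12722 and 2620 CPM in *dcl2T*, and 26.4 and 70.9 CPM in *dcl2-mu1*. Cluster_135, the most abundant of them (2861 bp, 2829843 to 2832703), had 98.1 and 47.7 CPM in *Dcl2* against 6606 and 1347 CPM in *dcl2T*, a log2 fold change of 5.77 (SE 0.60, adjusted p = 3.92e-05). Cluster_138 (1321 bp, 2849386 to 2850706) had 28.3 and 14.9 CPM against 2881 and 535 CPM, a log2 fold change of 6.31 (SE 0.73, adjusted p = 0.000153). The genotypes did not overlap at any of these loci, although the first *dcl2T* library stood well above the second at each. Of the 24 loci tested within 200 kb, these included, 9 had both *dcl2T* libraries above both *Dcl2* libraries and 4 had both below. The 9 include the 4 called loci, which were selected as higher. Over all loci the shares were 21.4% above and 15.0% below, so no rise of the surrounding loci is drawn from this.

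The neighbourhood toward the other end of the chromosome (271437619 to 271476195, 38.6 kb) behaved alike in the same libraries. Cluster_10926, Cluster_10927, Cluster_10928 and Cluster_10929 summed to 287 and 252 CPM in *Dcl2*, 11756 and 2493 CPM in *dcl2T* and 144 and 222 CPM in *dcl2-mu1*. Of the 13 loci tested within 200 kb, these included, 6 had both *dcl2T* libraries above both *Dcl2* libraries and 1 had both below. Here too the 6 include the 4 called loci, beside shares of 21.4% above and 15.0% below over all loci. Cluster_10926 (4363 bp, 271437619 to 271441981) had 31.5 and 27.2 CPM in *Dcl2* against 2596 and 542 CPM in *dcl2T*, with a log2 fold change of 5.74 (SE 0.59, adjusted p = 3.72e-05). Cluster_10929, the most abundant locus that rose (5233 bp, 271470963 to 271476195), had 152 and 138 CPM against 7108 and 1404 CPM, a log2 fold change of 4.87 (SE 0.54, adjusted p = 8.93e-05). At Cluster_10927 (2158 bp, 271459073 to 271461230) the levels were 77.9 and 70.8 CPM against 1341 and 373 CPM. In both neighbourhoods the first *dcl2T* library was the higher by several times, and with that library left out 6 of the 8 loci were still called, all but Cluster_137 (adjusted p = 0.0305) and Cluster_10927 (adjusted p = 0.0232). With either *Dcl2* library left out, Cluster_135 was the one called without the first (adjusted p = 0.00632), and none of the 8 was called without the second. None of the 8 was called in the fit of the 4 *dcl2T* and *Dcl2* libraries alone, so these calls also rest on the *dcl2-mu1* libraries. The next locus after Cluster_10929, Cluster_10930 (743 bp, 271483680 to 271484422), had 30 and 23 reads in *Dcl2* and 0 and 2 in *dcl2T*, the opposite direction.

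Elsewhere, the most abundant loci that rose were even between the *dcl2T* replicates. Cluster_77943 (4326 bp, chromosome 9, 147658312 to 147662637) had 107 and 169 CPM in *Dcl2* and 872 and 811 CPM in *dcl2T*, with a log2 fold change of 2.61 (SE 0.39, adjusted p = 0.00320), and 489 and 1088 CPM in *dcl2-mu1*. Cluster_84756 (4569 bp, chromosome 10, 146832941 to 146837509) rose from 60.5 and 85.4 CPM to 648 and 654 CPM, and Cluster_65755 (5077 bp, chromosome 8, 20353991 to 20359067) from 36.4 and 104 CPM to 490 and 485 CPM. At these loci the *dcl2T* replicates nearly coincided. Even so, Cluster_77943, Cluster_84756 and Cluster_65755 were not called in the fit of the 4 *dcl2T* and *Dcl2* libraries alone. These calls thus also rest on the *dcl2-mu1* libraries. Cluster_84756 and Cluster_65755 were chosen for mention after their values were seen.

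Apart from Cluster_26293, the rest of the loci called higher were each under 250 CPM in every library of *dcl2T*. Not all of them are described, and those that are were picked out after their values were seen. A first set had some reads in *Dcl2*. Cluster_83924 (3905 bp, chromosome 10) had 11.3 and 35.1 CPM in *Dcl2* and 206 and 197 CPM in *dcl2T*. Cluster_946 (3462 bp, chromosome 1) had 12.2 and 21.3 CPM against 169 and 151 CPM, and Cluster_31406 (4845 bp, chromosome 3) had 17.1 and 13.1 CPM against 160 and 129 CPM. The 3 differed between genotypes by about the same amount, with log2 fold changes of 3.11, 3.25 and 3.26, and the lowest of their *dcl2-mu1* libraries had 125 CPM. Cluster_2445 (2080 bp, chromosome 1) had 6.43 and 6.41 CPM in *Dcl2*, 141 and 129 CPM in *dcl2T* and 165 and 161 CPM in *dcl2-mu1*.

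Others passed from almost no reads to well over 100. Cluster_9026 (1618 bp, chromosome 1) had 0 and 1 reads in *Dcl2* and 969 and 345 in *dcl2T*, and none in *dcl2-mu1*. Cluster_11996 (1005 bp, chromosome 1) went from 3 and 1 to 223 and 163 reads, also with none in *dcl2-mu1*, and Cluster_50149 (897 bp, chromosome 5) from 3 and 0 to 159 and 164 reads, with 40 and 167 in *dcl2-mu1*. The *dcl2-mu1* level was thus near that of *Dcl2* at the first pair and nearer that of *dcl2T* at the last. Among the loci with no read in *Dcl2*, Cluster_5568, at 21 bp no longer than a single small RNA (chromosome 1, 145381745 to 145381765), had 559 and 450 reads in *dcl2T* and 324 and 150 in *dcl2-mu1*. Cluster_30070 (93 bp, chromosome 3) had 321 and 154 reads and Cluster_42337 (246 bp, chromosome 5) 120 and 117, both with 0 in *dcl2-mu1*. Cluster_54196 (1198 bp, chromosome 6), also without reads in *Dcl2*, had 413 and 701 reads in *dcl2T* and 199 and 444 in *dcl2-mu1*.

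**Figure D2:**
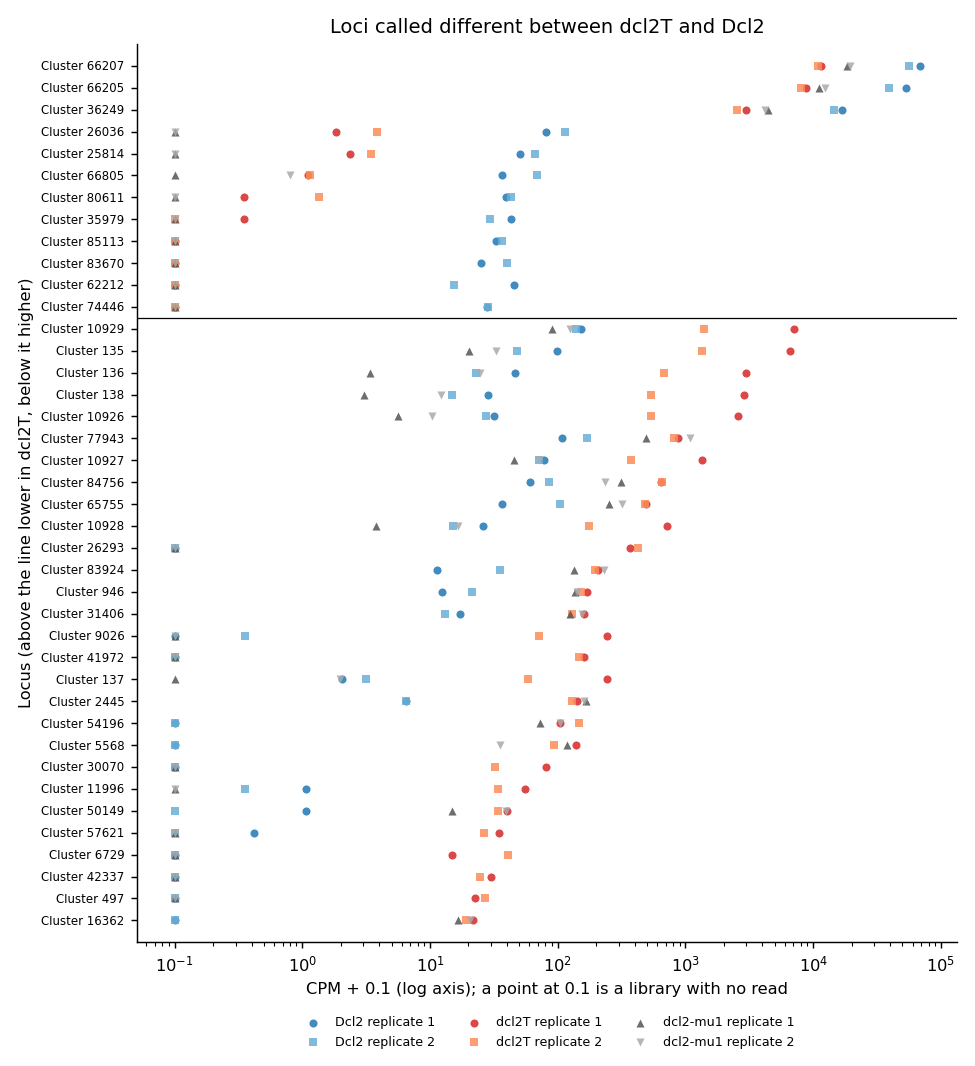
Level of each of the 40 called loci in the 6 libraries, as CPM with 0.1 added on a log axis, so that a point at 0.1 is a library with no read; blue is *Dcl2*, red and orange *dcl2T*, grey *dcl2-mu1*. The 12 loci above the line were lower in *dcl2T* and the 28 below it higher, and at Cluster_135 to Cluster_138 and Cluster_10926 to Cluster_10929 the red points (first *dcl2T* library) lie well to the right of the orange ones.

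At 9 of the loci called higher there was no read in either *Dcl2* library, and such loci were not limited to the called ones. In all, 1430 loci (3.72%) had no read in *Dcl2*, and 410 (1.07%) had none in *dcl2T*. Most of these held few reads in the other genotype, with medians of 19 and 22. Where at least 50 reads were required in the other genotype the counts were close, 70 against 63. Of these, 41 and 46 had reads in both libraries of that genotype. The excess of loci without reads in *Dcl2* therefore lay among sparse loci, in the genotype whose libraries also had more zeros in general. With at least 10 reads in each library of the other genotype, 213 loci were without reads in *Dcl2* and 97 in *dcl2T*. After thinning to equal depth, 1039 loci had no read in *Dcl2* and 407 had none in *dcl2T*.

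Loci without reads in a genotype were short, with median lengths of 749 bp for *Dcl2* and 496 bp for *dcl2T* against 1243 bp for all. Under 200 bp they were 8.72% of the loci for *Dcl2* and 6.54% for *dcl2T*, and at 1000 to under 2000 bp 2.86% and 0.443%. In numbers these were 112 loci against 84 under 200 bp, and 512 against 132 at 500 to under 1000 bp. At 10000 bp and over every locus had reads in both genotypes. Reads in at least 1 *dcl2-mu1* library were found at 51.0% of the 1430 loci without reads in *Dcl2*. For the 410 without reads in *dcl2T* this share was 36.1%. Over all loci, the single *dcl2-mu1* libraries had no read at 62.3% and 28.9%. The second library alone thus had reads at all but 28.9% of loci, so both shares were below that over all loci.

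The locus with the most reads of those without reads in *Dcl2*, Cluster_26293 (196 bp, chromosome 3, 104459965 to 104460160), was at least 931-fold higher in *dcl2T*, whose libraries had 1481 and 2054 reads against a *Dcl2* floor of 0.428 CPM. It had none in *dcl2-mu1* either. Cluster_9898, of 25 bp on chromosome 1 (247230094 to 247230118), had 474 and 2157 reads in *dcl2T*, none in *Dcl2*, and 7441 and 0 in *dcl2-mu1*. It was not called (adjusted p = 0.0777), and neither was Cluster_78858 (264 bp, chromosome 10, 55150 to 55413), whose 1481 reads all came from the first *dcl2T* library. In the other direction, Cluster_57620 (331 bp, chromosome 6, 169197914 to 169198244) had 351 reads in the second *Dcl2* library and none in the first. Reads in 1 library of a genotype, as here, were the case for 262 of the 1430 loci without reads in *Dcl2* (18.3%) and for 162 of the 410 without reads in *dcl2T* (39.5%).

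Loci without reads in one genotype sometimes had a neighbour that moved the other way. Next to Cluster_57620, Cluster_57621 (521 bp, 169198952 to 169199472) had 1 and 0 reads in *Dcl2* and 137 and 127 in *dcl2T*, and was called higher (log2 fold change 7.40, SE 1.22, adjusted p = 0.00978). At the tip of chromosome 5, Cluster_41970 (1022 bp, 1100743 to 1101764) had 1456 and 1079 CPM in *Dcl2* and 1.50 and 2.29 CPM in *dcl2T*, and 0 and 699 CPM in *dcl2-mu1*. Its log2 fold change of −9.35 (SE 1.70) did not pass the threshold (adjusted p = 0.0200). Cluster_41971 beside it (265 bp, 1102755 to 1103019), had 426 and 279 CPM against 0 and 155 CPM. Cluster_41972, the next (211 bp, 1103903 to 1104113), had no read in *Dcl2* and 638 and 708 in *dcl2T*. Of 13798 neighbouring pairs within 10 kb, 4 were without reads in opposite genotypes. Other pairs had both loci separating the genotypes with no overlap of libraries and by at least 3 on the log2 scale. Of these, 1 pair went in opposite directions (Cluster_10929 and Cluster_10930) and 72 in the same one. Neither Cluster_57620 and Cluster_57621 nor the loci at the tip of chromosome 5 met these definitions. The counts therefore do not give how common such cases were.

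By locus length, the median change rose slightly from short to long loci. It was −0.09 in the 1284 loci under 200 bp, 0.04 from 200 to under 500 bp (4151 loci) and from 500 to under 1000 bp (9408), 0.09 from 1000 to under 2000 bp (13999), 0.08 from 2000 to under 5000 bp (8503), 0.11 from 5000 to under 10000 bp (944) and 0.15 in the 127 loci of 10000 bp and over. The difference between the longest and the shortest class was 0.24, and with 1 library left out it ran from 0.09 to 0.31. In each of the 4 single pairs of libraries the median under 200 bp was 0, and at 10000 bp and over it was 0.08 to 0.18. The value of −0.09 was thus seen with averaged replicates and in no single pair. Of the loci of 10000 bp and over, 52 (40.9%) had both *dcl2T* libraries above both *Dcl2* libraries and 28 (22.0%) had both below, against 21.4% and 15.0% of all loci. In this class the typical difference between libraries was 0.320 to 0.364 between genotypes and 0.228 and 0.174 within them, which makes it the length class in which the difference between genotypes most exceeded that between replicates.

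The longest loci thus went 2 ways, since the class also contained the 3 abundant loci that fell. Its share of counts was 17.4 ± 0.278% in *Dcl2* and 8.82 ± 0.180% in *dcl2T* (SD, n = 2), the largest change in share of any length class. Libraries did not overlap, but 2 against 2 libraries cannot give a p below 0.33 in an exact two-sided permutation test, which was the value here. With Cluster_66207, Cluster_66205 and Cluster_36249 left out, the share was 6.62% and 7.36% in *Dcl2* and 6.53% and 6.81% in *dcl2T*. The share of loci of 2000 to under 5000 bp was 29.9% and 31.4% in *Dcl2* and 35.2% and 34.6% in *dcl2T*, the next largest change. Shares of a library sum to a fixed total, so a fall in one class raises the others.

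**Figure D3:**
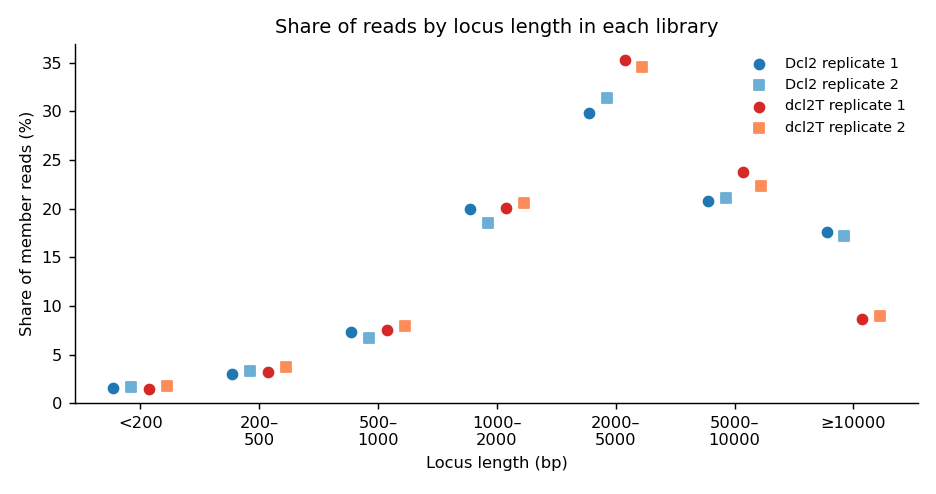
Share of the reads of the tested loci (y axis, percent) that fell in each class of locus length (x axis, bp), with 1 point per library; blue is *Dcl2* and red and orange *dcl2T*. At 10000 bp and over the *Dcl2* libraries hold 17.6% and 17.2% and the *dcl2T* libraries 8.69% and 8.94%.

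Among loci of like abundance, the slope with length was seen from 2 to under 100 CPM. Of loci with 20 to under 100 CPM, those of 200 to under 500 bp had a median log2 change of −0.29 (−0.39 to −0.23 over the 4 pairs of libraries, 95 loci), and 42.1% had both *dcl2T* libraries below both *Dcl2* libraries. The 46 loci under 200 bp had a median of −0.15. The median was −0.18 at 500 to under 1000 bp, −0.13 at 1000 to under 2000 bp, −0.03 at 2000 to under 5000 bp and 0.12 at 5000 to under 10000 bp. The 61 loci of 10000 bp and over had a median of 0.28 (0.22 to 0.37), and 50.8% had both *dcl2T* libraries above. Between loci of at least 5000 bp and loci under 1000 bp the difference was 0.33, and it stayed between 0.27 and 0.50 with any library left out. Among loci with 5 to under 20 CPM the same difference was 0.30, and 0.15 to 0.57 with a library left out. Under 2 CPM, the class of 18121 loci, medians showed no such order, at 0.09 under 200 bp, 0.20 at 200 to under 500 bp, 0.24 at 2000 to under 5000 bp and 0.07 at 5000 to under 10000 bp. From 100 to under 1000 CPM they stayed between −0.18 and −0.15 from 200 to under 5000 bp.

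**Figure D4:**
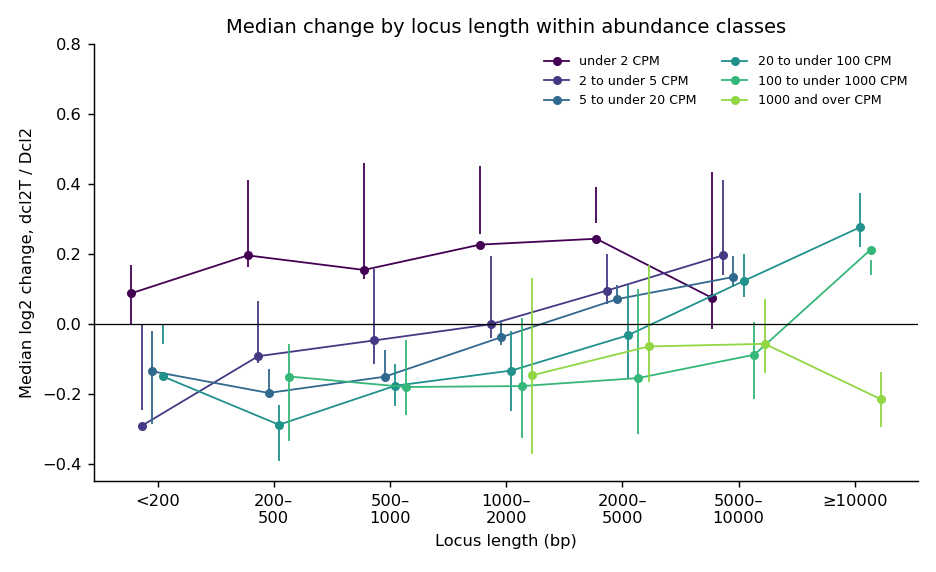
Median log2 change of *dcl2T* over *Dcl2* (y axis) by locus length (x axis, bp), with 1 line per class of abundance, for classes of at least 20 loci; vertical lines span the medians of the 4 pairs of libraries, which differ from the median of the means where many loci have a zero. From 2 to under 100 CPM the lines climb from below 0 at short loci to above 0 at 5000 bp and more, and the class of 1000 CPM and over ends at −0.22.

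At 1000 CPM and over the pattern was different. The 20 loci of 10000 bp and over in this class had a median log2 change of −0.22 (−0.30 to −0.14), with both *dcl2T* libraries below both *Dcl2* libraries at 11 and above at 1. The class of 100 to under 1000 CPM at this length had a median of 0.21 over 31 loci. No test was made between these classes, since loci are not replicates.

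By abundance, the share of loci that separated downward rose steadily while their scatter shrank. Both *dcl2T* libraries were below both *Dcl2* libraries at 11.6% of loci under 2 CPM, 16.3% at 2 to under 5 CPM, 20.0% at 5 to under 20 CPM, 23.0% at 20 to under 100 CPM, 24.4% at 100 to under 1000 CPM and 24.7% at 1000 CPM and over. The share with both above went from 23.3% in the lowest class to 9.77% in the highest. Across the same classes the interquartile range of the log2 change fell from 1.61 to 0.314. No locus under 5 CPM was called. The 174 loci of 1000 CPM and over, with 70.9% of all reads in *Dcl2* against 67.0% in *dcl2T*, had a median log2 change of −0.08 (−0.24 to 0.09 over pairs), and the 18121 loci under 2 CPM a median of 0.20.

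Among the 10 most abundant loci, 5 had both *dcl2T* libraries below both *Dcl2* libraries and 0 had both above, against 15.0% and 21.4% of all loci. The 5 include Cluster_66207 and Cluster_66205, already described. The most abundant of all, Cluster_25109 (9040 bp, chromosome 3, 62552652 to 62561691), had 62944 and 54057 CPM in *Dcl2* and 52935 and 49395 CPM in *dcl2T*, a log2 fold change of −0.19 (SE 0.22). Cluster_47833 (10227 bp, chromosome 5, 157190641 to 157200867) had 20585 and 19776 CPM against 8976 and 12014 CPM, and was not called (adjusted p = 0.260). Cluster_62573 (6936 bp, chromosome 7, 134137234 to 134144169) overlapped between genotypes, at 31390 and 25959 CPM against 33127 and 28691 CPM. The 3 were chosen for mention after their values were seen, from the 10 most abundant.

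Within single length classes, the most abundant locus that separated by at least 1 on the log2 scale was called in 5 of the 7 classes in the higher direction and in 1 of the 7 in the lower. Besides Cluster_41971, the uncalled ones were the following. Among short loci, Cluster_83347 (181 bp, chromosome 10, 118703684 to 118703864) had 1704 and 3056 CPM in *Dcl2* and 857 and 663 CPM in *dcl2T* (log2 fold change −1.65, SE 0.35, adjusted p = 0.0675). Cluster_67036 (635 bp, chromosome 8, 61420318 to 61420952) had 850 and 73.1 CPM against 5.00 and 29.1 CPM, with *Dcl2* replicates more than 10 times apart. Cluster_33104 (1386 bp, chromosome 4, 21753280 to 21754665) had 1419 and 1671 CPM against 408 and 247 CPM. The genotypes stood apart at each of these. At Cluster_67036 (log2 fold change −4.75, SE 1.07, adjusted p = 0.0904) the nearest libraries of the genotypes, at 73.1 and 29.1 CPM, were closer than the *Dcl2* replicates. Cluster_41772 (2731 bp, chromosome 4, 251605195 to 251607925) had 658 and 516 CPM against 282 and 298 CPM. Cluster_36263 (6224 bp, chromosome 4, 117808299 to 117814522), in the same region as Cluster_36249, had 479 and 443 CPM against 157 and 96.4 CPM (log2 fold change −1.87, SE 0.36, adjusted p = 0.0379). In the higher direction, Cluster_26588 (14299 bp, chromosome 3, 114528277 to 114542575) had 24.1 and 25.4 CPM against 52.8 and 56.5 CPM, and Cluster_79031 (304 bp, chromosome 10, 3709701 to 3710004) had 89.1 and 22.8 CPM against 116 and 133 CPM.

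By chromosome, medians hardly differed, from 0.03 on chromosome 7 to 0.10 on chromosomes 3 and 9, and each chromosome had from 14.5% to 15.8% of its loci with both *dcl2T* libraries below. Shares of counts differed more. Chromosome 8 held 14.8% and 14.4% of *Dcl2* reads and 7.60% and 7.94% in *dcl2T*. Without Cluster_66205 and Cluster_66207 its share was 5.51% in *Dcl2* and 5.89% in *dcl2T*. Chromosome 1 held 12.5% and 12.0% against 15.8% and 14.9%, and without the 8 loci of its neighbourhoods 12.2% against 14.0%. In the exact permutation test none of these could fall below p = 0.33. Shares sum to a fixed total here as well, so the fall of Cluster_66205 and Cluster_66207 raises the shares of the other chromosomes, chromosome 1 included.

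The most abundant locus of the other chromosomes that separated by at least 1 gave values on both sides. On chromosome 2, Cluster_16558 (1329 bp, 99818784 to 99820112) had 804 and 784 CPM in *Dcl2*, 389 and 4.57 CPM in *dcl2T* and 0 and 3.51 CPM in *dcl2-mu1*, so that the *dcl2T* replicates were far apart. On chromosome 7, Cluster_58661 (666 bp, 21569970 to 21570635) had 190 and 146 CPM against 78.1 and 71.9 CPM. Chromosomes 3 and 6 had higher loci in this place. Cluster_24383 (9508 bp, chromosome 3, 42774377 to 42783884) had 927 and 1009 CPM against 2187 and 1947 CPM (log2 fold change 1.09, SE 0.29, adjusted p = 0.226), and Cluster_53611 (3675 bp, chromosome 6, 85149725 to 85153399) had 596 and 430 CPM against 1002 and 1229 CPM.

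Along the chromosome arms there was no trend from the ends toward the middle. From the outermost 10% of the chromosome inward, the medians of 5 equal steps were 0.06, 0.08, 0.08, 0.05 and 0.07. The outermost step, with 26.6% of all loci, had 14 of the loci called higher and 0 of those called lower (0.137% called, against 0.104% of all loci), and the step from 30% to 40% had 5 of the lower ones. Of the 8 loci of the chromosome 1 neighbourhoods, 4 lay in the outermost step and 4 in the next.

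In windows of 10 Mb with at least 20 loci, 219 in all, the medians ran from −0.45 to 0.38, and 59 were below 0. The lowest was the window from 80 to 90 Mb of chromosome 5, at −0.45, where the most abundant separated locus, Cluster_45504 (6449 bp, 85092250 to 85098698), had 181 and 199 CPM in *Dcl2* and 114 and 103 CPM in *dcl2T*. From 110 to 120 Mb of the same chromosome the median was the highest, 0.38, and Cluster_46408 (11269 bp, 113627815 to 113639083) had 147 and 107 CPM against 184 and 184 CPM. A window between them, from 100 to 110 Mb, had a median of −0.22, and 15 of its 141 loci had no read in *dcl2T* against 3 without reads in *Dcl2*, whereas over all windows the medians of these numbers were 1 and 6. The middle of chromosome 5 thus held both extremes. In 16 of the 219 windows, loci without reads in *dcl2T* outnumbered those without reads in *Dcl2*.

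Of the other windows, the median was −0.25 from 110 to 120 Mb of chromosome 4, the window of Cluster_36249, −0.23 from 90 to 100 Mb of chromosome 2 and −0.21 in the last window of chromosome 7, which had 37 loci. In those of chromosomes 4 and 2, in that from 80 to 90 Mb of chromosome 3 and in that from 100 to 110 Mb of chromosome 5, between 32.6% and 33.7% of loci had both *dcl2T* libraries below both *Dcl2* libraries, against 15.0% overall. For chromosome 9 from 50 to 60 Mb it was 29.5%. All 4 pairs of libraries gave a median below 0 in 7 windows and above 0 in 96. Among the highest windows were the last of chromosome 6, at 0.37, and that from 10 to 20 Mb of the same chromosome, at 0.33. The loci named there were sparse. Cluster_57688 (3638 bp, chromosome 6, 170005556 to 170009193) had 2.25 and 1.54 CPM in *Dcl2* and 7.01 and 6.02 CPM in *dcl2T*, and Cluster_51470 (1250 bp, 19478308 to 19479557) went the other way, from 26.1 and 16.9 CPM to 15.3 and 11.4 CPM.

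**Figure D5:**
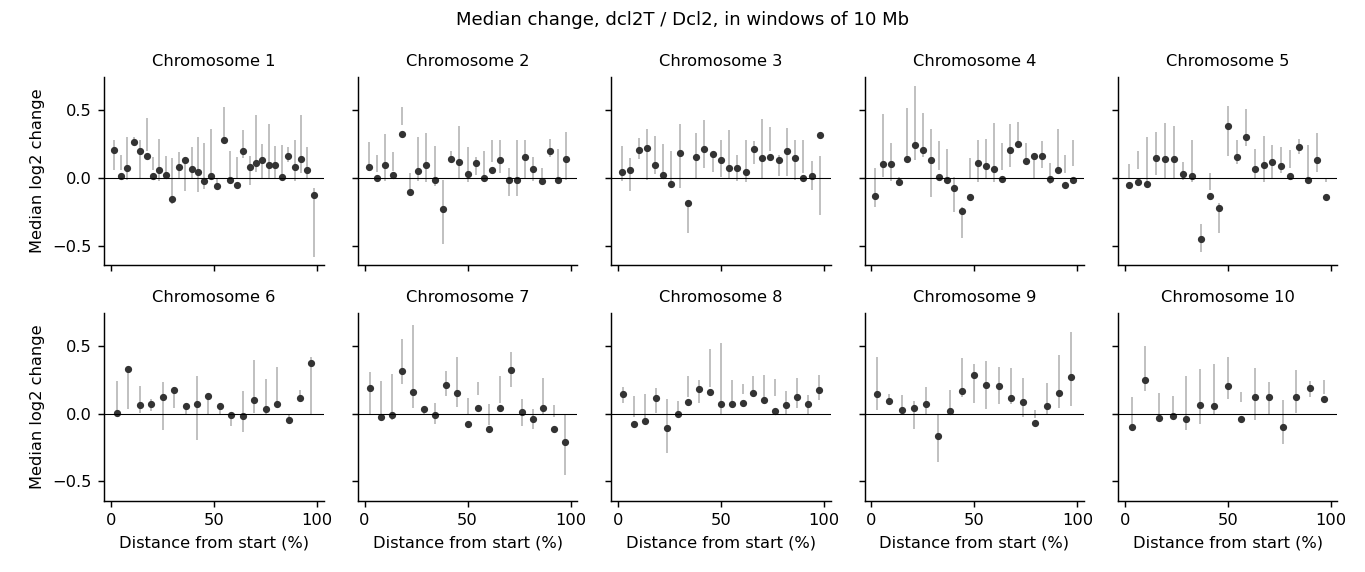
Median log2 change of *dcl2T* over *Dcl2* in each of the 219 windows of 10 Mb (points, y axis) by distance from the start of the chromosome in percent of its length (x axis), with 1 panel per chromosome; grey lines span the medians of the 4 pairs of libraries. Of the points, 59 lie below 0, and the lowest (−0.45) and the highest (0.38) are both near the middle of chromosome 5.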

How the data were processed

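Small RNA libraries were made from pollen of *Dcl2*, *dcl2T* and *dcl2-mu1* plants (2 biological replicates each). The authors trimmed adapters with cutadapt, removed 4 identifier bases from each read end, filtered structural RNA with bowtie2 and defined loci with ShortStack. Collapsing by identifier, the treatment of reads with several possible positions and the genome build are not given in the sources used here. Such reads can be divided among similar loci, so single loci within repeats are uncertain. The deposited values are raw counts per locus and library, with all read lengths joined. Of 20 samples in the series, 14 were not analysed here.

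Loci with at least 15 reads over the 4 *dcl2T* and *Dcl2* libraries entered a quasi-likelihood fit in edgeR 4.0.16 (R 4.3.3, glmQLFit and glmQLFTest), with 1 coefficient per genotype over all 6 libraries and TMM factors from library sizes recomputed over these loci. No block for replicate number was used. The study's thresholds were used for calls, an adjusted p (Benjamini-Hochberg) up to 0.01 with a log2 fold change of 2 or more in size. The common dispersion was 0.852. Standard errors were derived from the fold change and its F statistic. Medians use 0.5 CPM added, and are descriptions. Shares were compared over libraries by exact permutation. A floor of 3 reads over 2 libraries, used for loci without reads, covers counting error only.

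Named loci were all those called lower, the 6 most abundant called higher, the most abundant that separated by at least 1 on the log2 scale in each length class and chromosome, those of the 3 lowest and 3 highest windows, and the 3 with most reads and none in the other genotype, for each genotype, passing over any within 10 kb of one already taken. Others were chosen after their values were seen, as members of the same neighbourhood or of the 10 most abundant. Members, classes and rules were chosen with earlier results of these data known. Alternatives were other scalings, filters, tools, pseudocounts, thinning to equal depth and leaving out each library. A planned match to the 22-nucleotide siRNA loci listed by the study was not run, since their positions are in part on another assembly.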

Additional observations from a re-analysis of the deposited data

How the results depend on the processing

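Every locus called in the main fit kept its direction under all fits run, but the number called did not hold. Against 12 lower and 28 higher, the calls were 56 and 46 with DESeq2, 2 and 4 after filterByExpr, 72 and 76 with no filter beyond 1 read, 0 and 0 among loci with at least 100 reads, 4 and 6 with the *dcl2T* and *Dcl2* libraries alone, and 5 and 16 after thinning to equal depth. With the adjusted p relaxed to 0.05 and no minimum fold, 34 were lower and 40 higher. Leaving out 1 of the 6 libraries gave 3 to 38 lower and 7 to 48 higher. Replicate numbers did not pair the libraries, as same-numbered deviations did not correlate (0.027, −0.014 and −0.028), and with a replicate block 83 loci were lower and 81 higher. The cause of these shifts was not tested.

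Loci with both *dcl2T* libraries beyond both *Dcl2* libraries numbered 1301 lower (20.4%) and 1390 higher (21.8%) with at least 100 reads, where 6367 loci remain. In the main set the shares were 15.0% lower and 21.4% higher. They were 11.3% and 26.5% with library size alone, 15.8% and 20.6% with RLE factors, and 15.4% and 20.8% thinned. The balance of the 2 directions thus depended on the scaling. The median over all loci was 0.23 with library size alone, 0.035 with RLE factors, −0.0061 with at least 100 reads, 0.049 thinned, 0.081 and 0.047 with 0.1 and 2 CPM added, and −0.0028 to 0.25 with a library left out. The difference of the longest from the shortest class was 0.27 by library size, 0.25 at 100 reads, 0.25 thinned, 0.26 and 0.20 with the other pseudocounts, and 0.091 to 0.31 with a library left out. That of the most from the least abundant class (−0.28) ran from −0.99 to 0.11 with a library left out, so its sign rests on 1 library (the second of *dcl2T*), and had no value at 100 reads. The outermost against the central step was 0.029 at 100 reads and −0.035 to 0.012 with a library left out. The range over chromosomes (0.07) was 0.053, 0.070, 0.084, 0.061, 0.077 and 0.045 under library size, RLE, 100 reads, thinning and the lower and higher pseudocount, and 0.065 to 0.085 with a library left out.

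Shares moved where single loci were removed. Without the 10 most abundant loci, the change in share was −1.64 percentage points for the longest class, −1.49 for the class of 1000 CPM and over and −0.17 for chromosome 8, against −8.59, −3.88 and −6.84. Without the chromosome 8 pair, an alternative chosen after seeing the data, it was −2.08 for the longest class. Leaving out a library, also chosen after seeing the data, gave −8.79 to −8.39, −5.94 to −1.81 and −7.04 to −6.64. Loci without reads were 70 in *Dcl2* and 63 in *dcl2T* where 50 reads were required in the other genotype, and 1039 and 407 after thinning. Cluster_78858 and Cluster_57620 had no value without their only library with reads. The match to the loci listed by the study was not run. Depth limits the sparse loci, where 1 read is 0.208 to 0.322 CPM and no locus under 5 CPM was called.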
